A study of Schizosaccharomyces pombe with 6 samples.

Results

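The genes at both tips of chromosome I of the fission yeast Schizosaccharomyces pombe were examined by RNA-seq in growing cells. They were taken by name, as every counted feature whose identifier begins with one of 8 cosmid prefixes, which gave 97 genes of the 7269 features in the count tables. One tip, called the SPAC212 end here, holds 69 of them (12 with the prefix SPAC212, 18 SPAC977, 8 SPAC1F8, 18 SPAC11D3 and 13 SPAC5H10). The opposite tip, called the SPAC750 end, holds 28 (8 SPAC750, 9 SPAC186 and 11 SPAC869). The rule itself used names and no expression value, but it was set with earlier results of these data known. All 97 matched genes of chromosome I in the annotation, which also gave the order of the genes from the tip inwards.

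Vegetative haploid cells of 2 genotypes were compared, wt and sad1.2 csi1Δ, the latter called the mutant. It carries both the sad1.2 allele and a deletion of csi1, so effects of the allele and of the deletion cannot be told apart. Cultures of 30 mL grew asynchronously in rich medium at 30 °C and were harvested during exponential growth (optical density 0.5), and each genotype had 3 libraries that the labels call biological replicates. The study asked, per its design text, how expression responds when centromeres lose their clustering. The sources used here do not give the strain background or the number of isolates per genotype. Libraries held between 19074531 and 19951875 counts. The csi1 count was 1271, 1142 and 1225 in wt against 210, 204 and 63 in the mutant (log2 fold change −3.08, adjusted p = 0.0188 by edgeR), so no mutant library reached a wt library.

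The tips of fission yeast chromosomes carry heterochromatin, built by the histone methyltransferase Clr4 and bound by Swi6, which keeps genes low in growing cells. In interphase the telomeres are held at the nuclear envelope by Bqt3, Bqt4 and the LEM-domain protein Lem2, whereas Sad1 and Csi1 work at the spindle pole body, where the centromeres gather. Subtelomeric genes often belong to families copied between chromosome ends, and many encode transporters, enzymes of nutrient use and cell surface proteins that growing cells need little of.

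How well a gene at these ends can be counted depended on its place. Coding sequences of 30 of the 97 genes had a near-identical copy, defined as at least 95% identity over at least 50% of the coding length, and for 25 of the 30 the best copy lay on chromosome II. The copies sit at the tips: 20 of the outermost 22 genes of the SPAC212 end and all of the outermost 7 of the SPAC750 end have one. The RecQ-type helicase gene tlh1, the outermost gene of the SPAC212 end, is 99.98% identical to a chromosome II gene and had raw counts of 3, 18 and 8 in wt against 8, 3 and 6 in the mutant, too few to be tested. A further 17 genes lie under another counted feature for at least 50% of their length, and the sources used here do not say whether the counting used strand.

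Levels were low and uneven. Of the 97 genes 10 had no count in any library: 7 lie at least 90.2% under another feature (SPAC11D3.02c, SPAC11D3.03c, SPAC11D3.06, SPAC11D3.14c, hhy1, dgc1 and SPAC5H10.10), and the other 3 (ayr2, SPAC750.07c and SPAC750.08c) have a near-identical copy. Another 21 had counts but too few to be tested, which left 66 tested genes, 46 at the SPAC212 end and 20 at the SPAC750 end. All 50 genes with neither a copy nor such an overlap were among the 66. In wt, 15 of the 46 and 14 of the 20 tested genes stood under 5 CPM (counts scaled to a common library size), against 13.6% of all 4941 tested features. The whole SPAC750 end took between 0.0355% and 0.0784% of the counts of a library. The SPAC212 end took between 1.14% and 1.60%, and without pdc101 between 0.282% and 0.407%.

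At each end 1 gene rose and 0 fell. At the SPAC212 end the pseudogene SPAC977.13c was higher in the mutant, and at the SPAC750 end hry1, which encodes a protein with a cation-binding HHE domain as in hemerythrins. A gene was called at an edgeR quasi-likelihood p under 0.05 after Benjamini-Hochberg adjustment over all 4941 tested features, of which 2.29% were called higher and 0.121% lower. The 1 of 46 is a share close to that background, and the 1 of 20 is a single gene. At an unadjusted p under 0.05, 19 of 46 and 9 of 20 were higher and 0 at either end were lower, against 14.5% higher and 8.12% lower over all features. DESeq2 called 10 and 8 genes higher and 0 lower, against 6.89% and 2.81% of the 5339 features to which it gave an adjusted p.

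Positive log2 fold changes were in the majority. The SPAC212 end had 32 positive and 14 negative values with a median of 0.38, and the SPAC750 end 15 positive and 5 negative with a median of 1.13, while the median over all tested features was 0.00431. The median of the SPAC750 end was 0.30 without mutant replicate 1, and 0.23 over the 8 genes left by the stricter filter. Without an expression filter the medians were 0.35 over 61 genes of the SPAC212 end and 0.83 over 26 of the SPAC750 end. A log2 fold change of at least 1 was reached by 10 genes at each end, against 5.46% of all features. With every wt count under 10, ftm2, pfl6, shu1, SPAC869.04 and hry1 passed the main expression filter only through their mutant libraries. Such genes could enter only with a higher mutant level. The filter asked for about 10 counts in at least 3 libraries, the size of a genotype group. Genes with fewer such wt libraries also needed mutant libraries. Among them are SPAC977.18, SPAC977.06, SPAC869.01, SPAC869.03c, SPAC186.06, SPAC186.07c, SPAC186.08c and pdc102, and with negative values SPAC212.08c and ftm4. The counts and medians above are thus partly selected by the filter. The size of that part was not tested. All mutant libraries were above all wt libraries in 15 of 46 and 8 of 20 genes, against 16.7% of all features. The reverse held for 1 gene at each end, pfl8 and cat1, against 13.8%. These separations are in scaled CPM, and in raw counts the genotypes overlapped for both genes. In bulk RNA, more transcripts per cell and more cells with a transcript cannot be told apart.

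**Figure D1:**
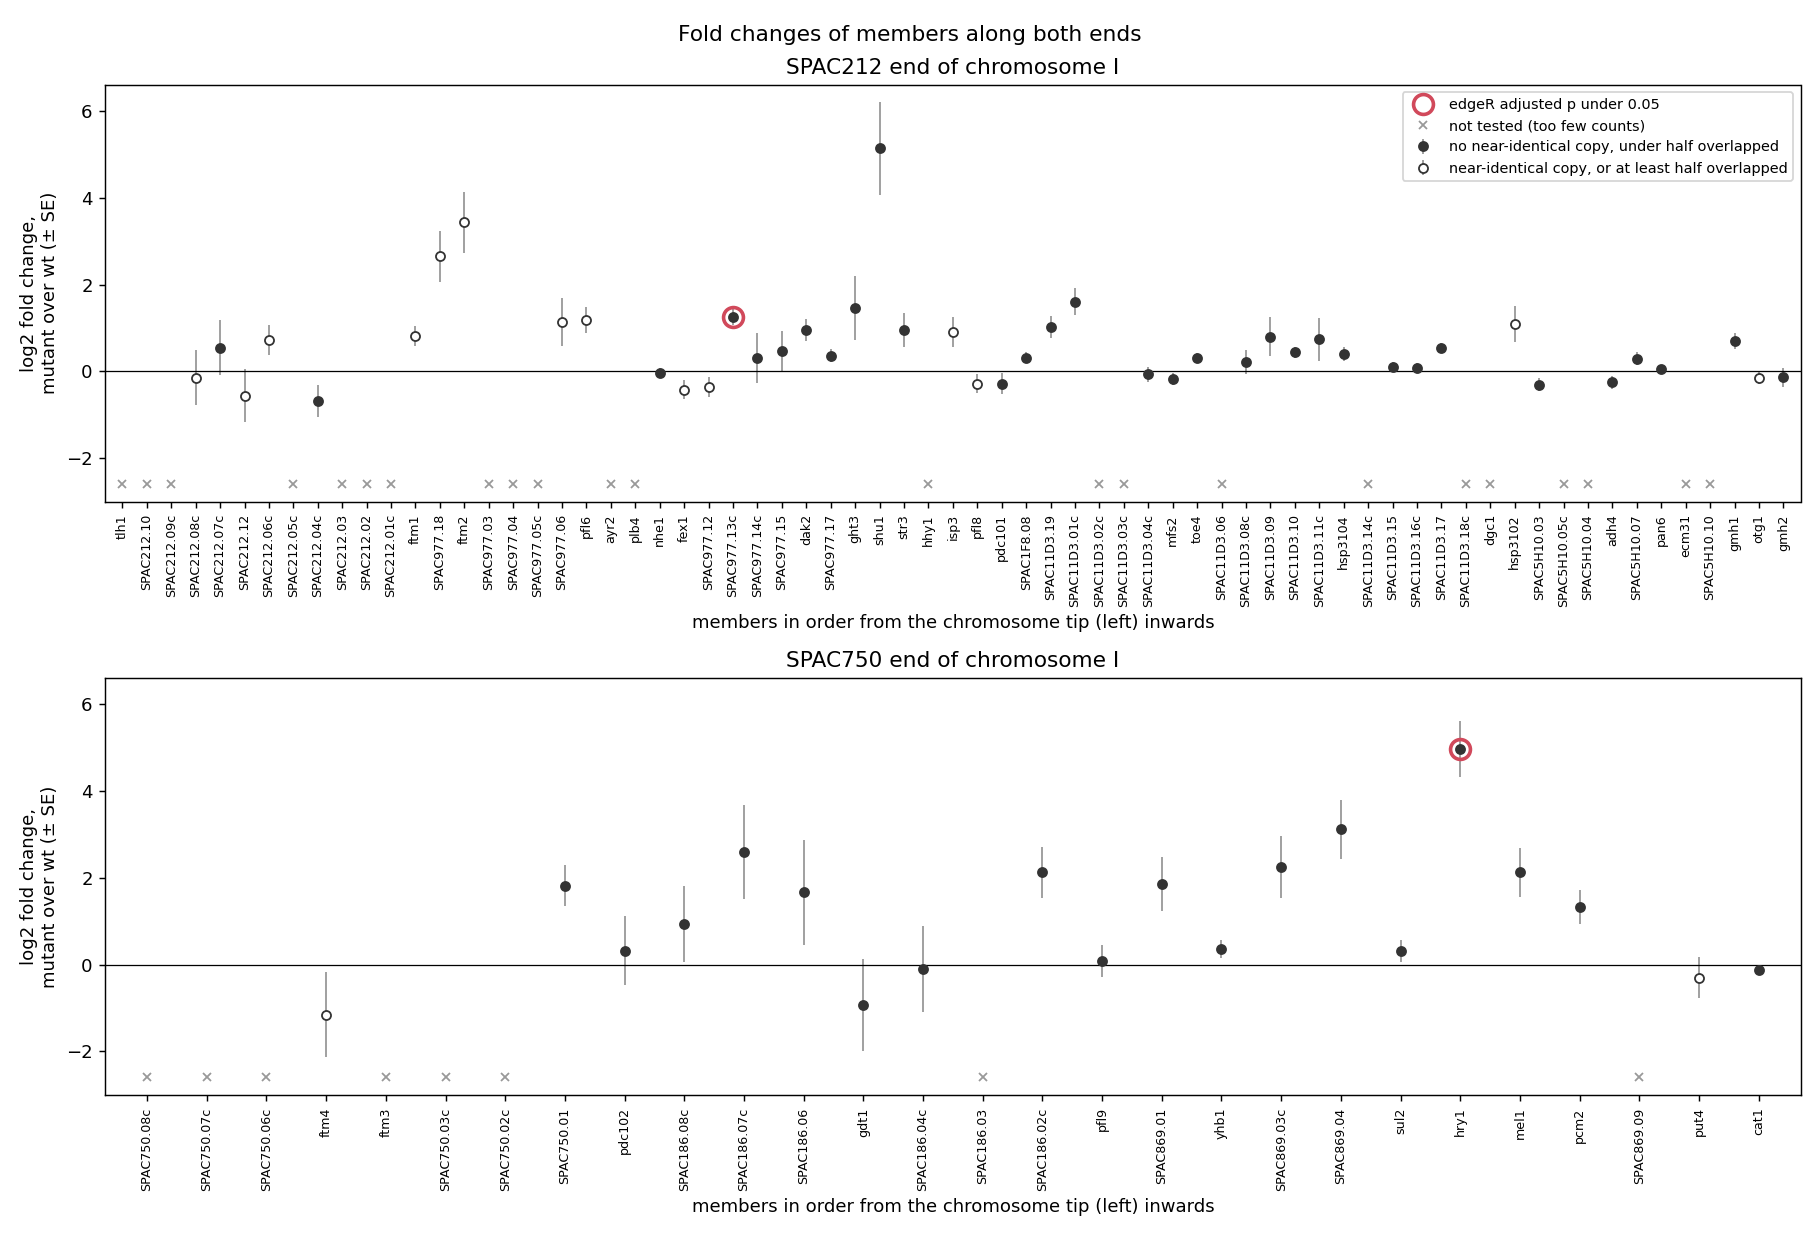
Log2 fold change, mutant over wt, of each tested gene with its standard error, in order from the chromosome tip inwards (x axis), for the SPAC212 end and the SPAC750 end. Ringed points passed at an edgeR adjusted p under 0.05 (SPAC977.13c and hry1), open points have a near-identical copy or at least 50% overlap, and crosses mark genes with too few counts to be tested. At the SPAC750 end the genes from SPAC869.01 to pcm2 all lie above 0.

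Weakly expressed genes away from the chromosome ends also had higher values in the mutant libraries. These were 34 tested coding genes with no overlap, at least 100 kb from a chromosome end and with a mean under 5 CPM over all libraries. Their median gain over wt was 3.12 CPM per kb in mutant replicate 1, 1.68 in replicate 2 and 0.911 in replicate 3. At such levels a gene can pass the expression filter through its mutant libraries alone, so part of this gain may be selected by the filter. That part was not tested. The wt replicates lay −0.0989, 0.0621 and 0.0140 CPM per kb from their own mean. The median gain of the tested genes was 1.53 CPM per kb at the SPAC212 end and 1.40 at the SPAC750 end. When the gain of each mutant library was subtracted, 39 genes of the SPAC212 end and 13 of the SPAC750 end kept enough counts to be tested. Over those 39 genes the median log2 fold change went from 0.31 to 0.09, and over those 13 genes from 1.33 to 1.13. The 7 genes that dropped out at each end did so through the subtraction itself. SPAC977.13c and hry1 still passed, at edgeR adjusted p of 0.0368 and 0.0277. The part of this gain in the other values was not tested.

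Libraries of the same genotype lay far apart for many of these genes. The gene-wise biological coefficient of variation was at least 1.5 times the trend in 13 of 46 and 15 of 20 tested genes, against 6.86% of all features, and its median was 0.204 and 0.471 against 0.135. In 17 of the 20 genes of the SPAC750 end mutant replicate 1 was the highest and mutant replicate 3 the lowest mutant library, and in 25 of 46 at the SPAC212 end, against 26.8% of all features. Wt replicate 2 and mutant replicate 3 were each the lowest of their genotype in 10 of 20 and 21 of 46 genes (28.2% of all features). They were each the highest in 0 and 11 genes (31.1%).

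**Figure D2:**
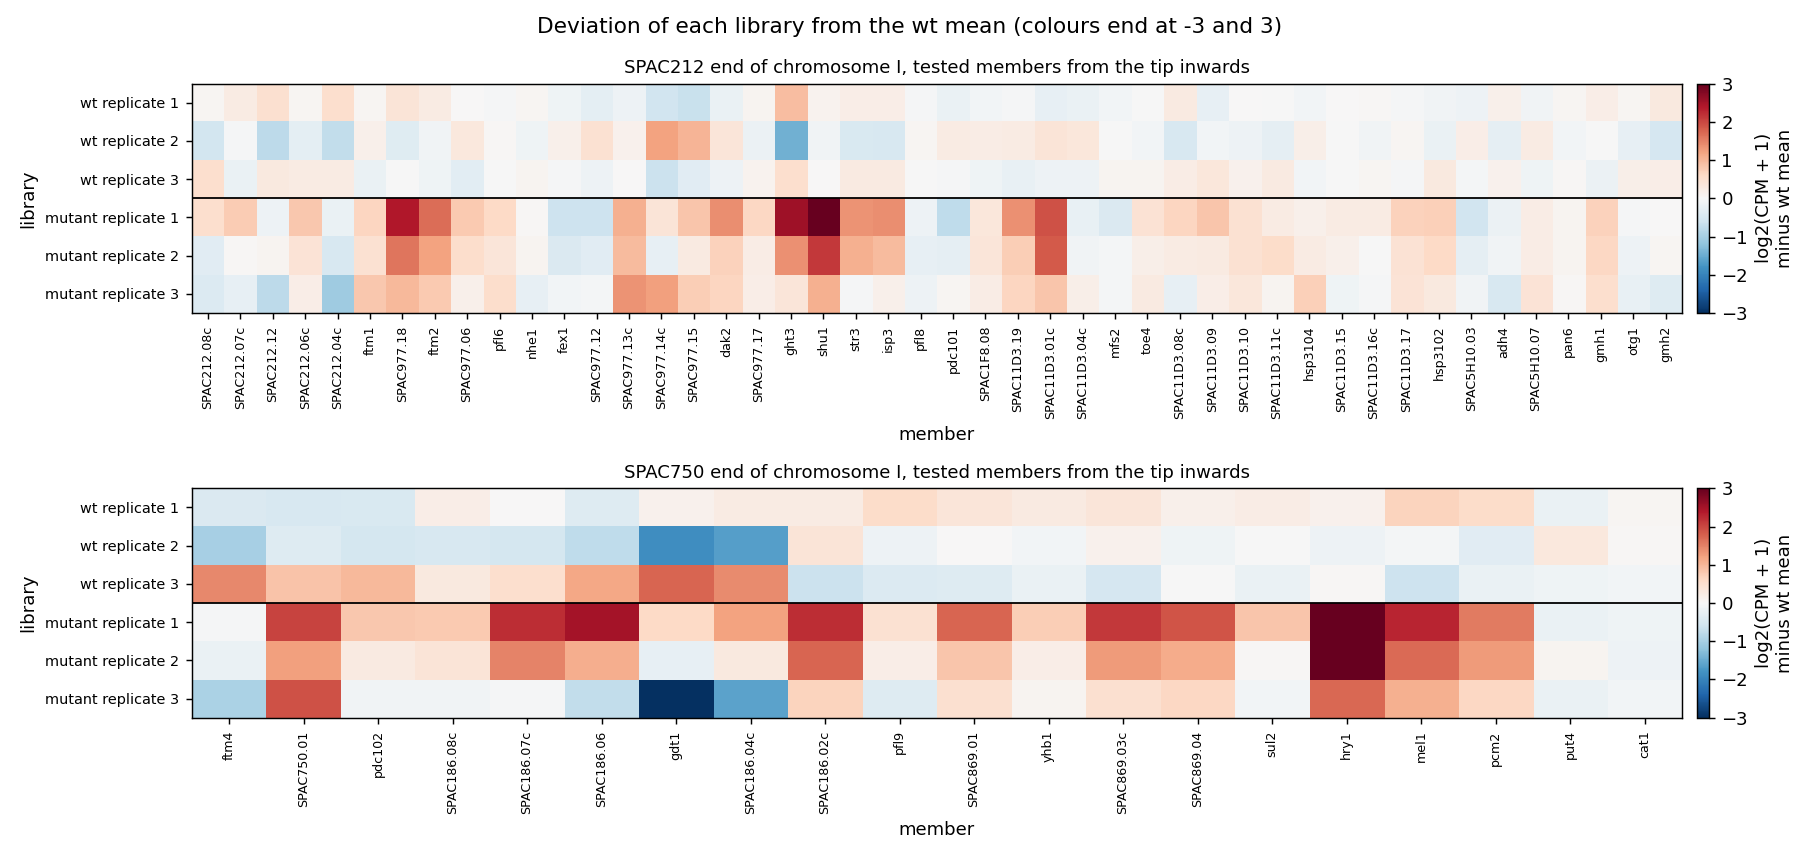
Deviation of each library (rows) from the wt mean, as log2(CPM + 1), for the tested genes of each end in order from the tip (columns); red is higher and blue lower, with colours ending at −3 and 3. At the SPAC750 end the reddest cells are those of mutant replicate 1, and several genes of the SPAC186 group are blue in wt replicate 2 and mutant replicate 3.

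The SPAC212 end begins with copied genes at the limit of detection. Its 5 tested SPAC212 genes had a median log2 fold change of −0.15, with 2 positive and 3 negative values. A helicase-like fragment, SPAC212.06c, had counts of 30, 17 and 36 in wt against 72, 44 and 35 in the mutant, so that the lowest mutant value fell among the wt values (log2 0.72, SE 0.348, edgeR adjusted p = 0.269). With the background subtracted its log2 fold change was −0.82. The uncharacterized SPAC212.04c, the most abundant gene of the group and 1 of 2 without a copy, had 444, 156 and 362 against 300, 218 and 135 counts (log2 −0.68, adjusted p = 0.333). Its groups overlapped, with wt replicate 2 and mutant replicate 3 lowest. The gene for a GPI-anchored surface protein, SPAC212.12, had 58, 11 and 47 against 34, 39 and 12 counts, with overlap (log2 −0.56, adjusted p = 0.642).

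Next come the ftm genes, which encode transmembrane proteins of a family copied at several chromosome ends. The ftm2 count was 7, 1 and 1 in wt against 60, 33 and 19 in the mutant, with no overlap, at a log2 fold change of 3.44 (SE 0.704) that did not pass (edgeR adjusted p = 0.0586). Its coding sequence is 100% identical to that of ftm3 at the SPAC750 end, which had at most 4 counts in a library. For ftm1 the counts were 56, 54 and 42 in wt against 107, 80 and 107 in the mutant, again without overlap (log2 0.82, SE 0.230, adjusted p = 0.109). How reads that match several copies were assigned is not stated, so whether the ftm1 and ftm2 counts arose at this chromosome end was not tested. Between them SPAC977.18, uncharacterized and with a copy as well, had 25, 6 and 14 against 183, 86 and 47 counts (log2 2.65, SE 0.589, adjusted p = 0.0632). All its mutant values exceeded the wt values, mutant replicate 1 by most.

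The SPAC977 pseudogene that passed has no near-identical copy and no overlapping feature. SPAC977.13c, in place 26 from the tip, had raw counts of 104, 117 and 117 in wt against 303, 247 and 329 in the mutant. Replicates lay close together and the genotypes did not overlap. Its level went from 6.0 ± 0.724 to 14.2 ± 2.30 CPM (SD, n = 3 each), with a log2 value of 1.24 (SE 0.182, adjusted p = 0.0261 by edgeR). The call rests on all but 2 of the libraries: the adjusted p was 0.122 without wt replicate 1, 0.141 without wt replicate 3, 0.0912 without mutant replicate 1 and 0.105 without mutant replicate 2, at log2 fold changes between 1.15 and 1.33. Both genes beside it had other patterns. On its tip side lies SPAC977.12, for an L-asparaginase, an enzyme that releases ammonia from asparagine. SPAC977.12 has a near-identical copy on chromosome II, and had 1319, 1957 and 1409 counts in wt against 1175, 1291 and 1532 in the mutant, with overlap (log2 −0.36, adjusted p = 0.389). On the inner side of the pseudogene the aldo-keto reductase gene SPAC977.14c had 9774, 29505 and 8966 against 21481, 12282 and 33526 counts. It was highest in wt replicate 2 and mutant replicate 3, the groups overlapped, and its log2 fold change of 0.31 had an SE of 0.580 (adjusted p = 0.793).

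**Figure D3:**
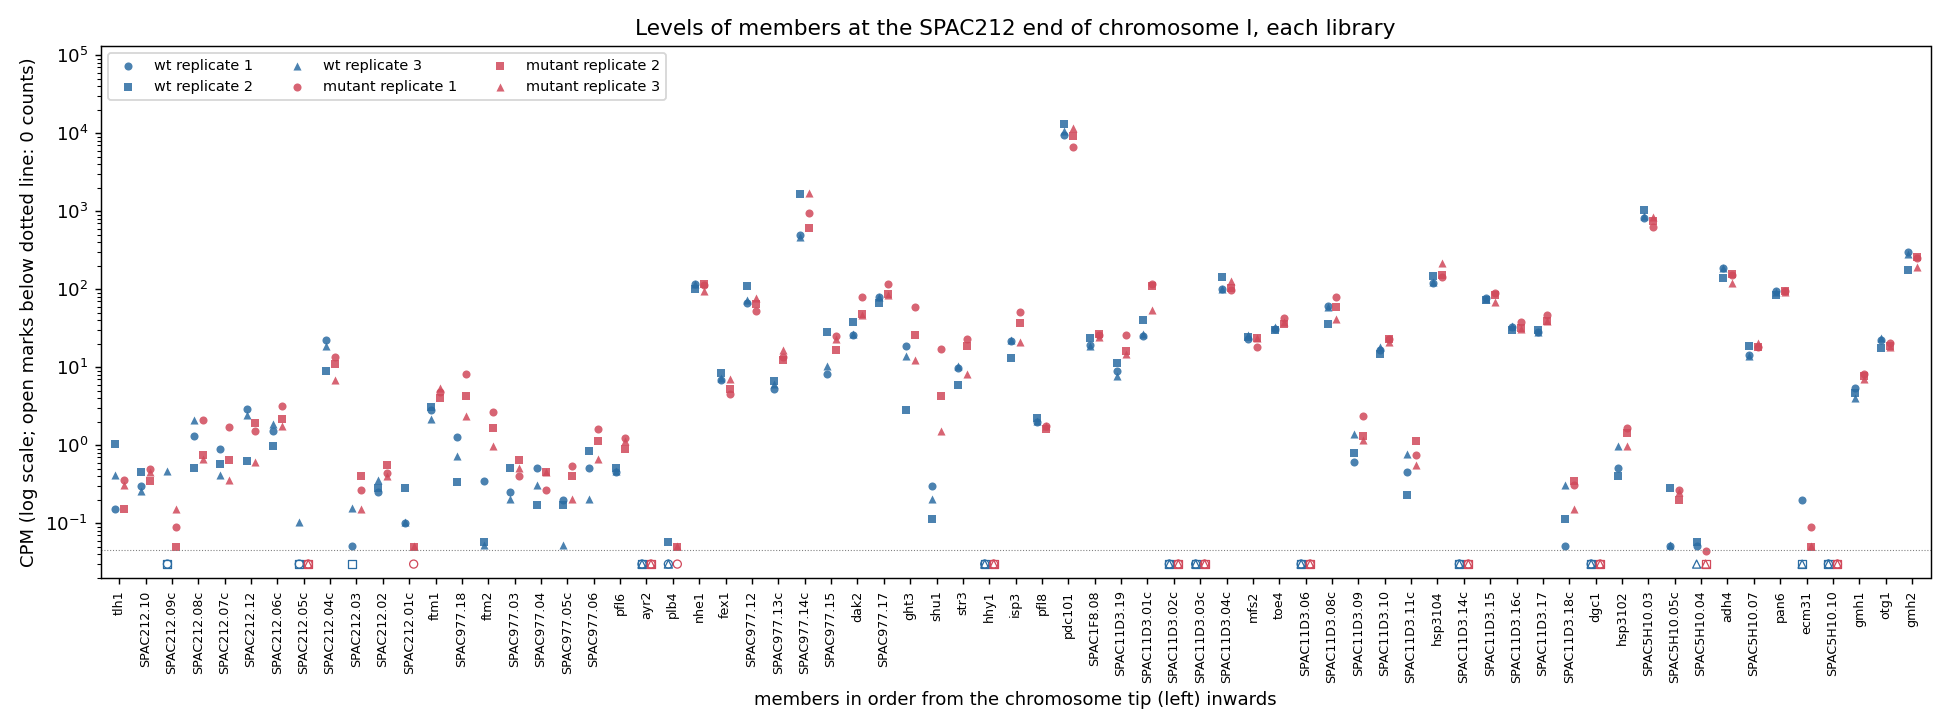
CPM (log axis) of the genes of the SPAC212 end in each library, in order from the tip (left); marker shapes are replicates and colours genotypes, and open marks below the dotted line are counts of 0. The outermost genes sit mostly under 5 CPM, and pdc101 stands highest in every library.

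Membrane transporters of the SPAC212 end, 9 genes of which 7 were tested, had 4 positive and 3 negative log2 fold changes and a median of 0.22. The gene for the gluconate symporter Ght3 had counts of 376, 50 and 266 in wt against 1335, 518 and 244 in the mutant (log2 1.45, SE 0.740, edgeR adjusted p = 0.297). The groups overlapped through mutant replicate 3. The gene for Str3, which takes up iron bound to siderophores, had 197, 103 and 200 against 522, 380 and 162 counts, with overlap in the same library (log2 0.95, adjusted p = 0.217). The sodium/proton antiporter gene nhe1, also known as sod2, was at 111 ± 8.77 CPM in wt and 108 ± 12.3 CPM in the mutant (log2 −0.04, adjusted p = 0.862). The sign of that value turned with the scaling: without a composition factor it was 0.08. The fluoride export channel gene fex1 had 135, 147 and 140 against 101, 105 and 137 counts (log2 −0.42, adjusted p = 0.302), with an overlap through mutant replicate 3, and it has a copy.

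Of 28 metabolic enzyme genes at this end 17 were tested, with 10 positive and 7 negative log2 fold changes and a median of 0.10. Transcript levels per length were highest here. The putative pyruvate decarboxylase gene pdc101, which acts in alcoholic fermentation, stood at 5941 CPM per kb in wt and 4865 in the mutant. Its total was 11187 ± 1850 against 9162 ± 2522 CPM (SD, n = 3), at a log2 fold change of −0.29 (adjusted p = 0.529 by edgeR). Counts of pdc101 were 190067, 231143 and 207110 against 147746, 184991 and 227569, an overlap set by mutant replicate 3. Lower but still abundant were SPAC5H10.03 of the phosphoglycerate mutase family (915 against 737 CPM per kb), SPAC977.14c (718 against 891), SPAC11D3.04c (140 against 134) and hsp3104, a glyoxylase gene (119 against 156). The alcohol dehydrogenase gene adh4 had 3722, 2456 and 3568 counts in wt against 3387, 3163 and 2384 in the mutant, with overlap (log2 −0.25, adjusted p = 0.367). The dihydroxyacetone kinase gene dak2, of glycerol breakdown, had 512, 674 and 515 against 1786, 971 and 929 counts without overlap (log2 0.95, SE 0.251, adjusted p = 0.0972).

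Genes whose product text names a cell surface protein gave 4 tested genes, 1 positive and 3 negative, with a median of −0.22. The product text of shu1 (log2 5.14) and isp3 (log2 0.91) does not do so. Both are described below as surface proteins but were not counted here. The glycoprotein gene pfl8 had 40, 39 and 40 counts in wt against 40, 32 and 35 in the mutant (log2 −0.29, edgeR adjusted p = 0.487). In CPM its groups did not overlap, and 81.8% of its length is shared with other features. The transcription factor genes toe4, SPAC11D3.11c and SPAC11D3.17 had log2 fold changes of 0.31, 0.74 and 0.53. Of these SPAC11D3.17, a zinc cluster factor, had 560, 531 and 543 against 1061, 785 and 758 counts without overlap (SE 0.115, adjusted p = 0.0612).

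The remaining group, 18 genes of other or uncharacterized function, held the largest value of the end. Of its 12 tested genes 11 were positive, with a median of 0.96. The gene shu1 encodes a cell surface protein for taking up heme. Its counts were 6, 2 and 4 in wt against 382, 85 and 30 in the mutant, so every mutant library was higher, but the mutant libraries differed from each other by up to 11.1-fold in CPM. Its log2 fold change came to 5.14 (SE 1.07, adjusted p = 0.0597 by edgeR), and to 3.72 without mutant replicate 1. The gene did pass without mutant replicate 3 (adjusted p = 0.0274). SPAC11D3.01c, of the Con-6 family named after a conidiation protein of Neurospora, had 504, 699 and 520 counts in wt against 2601, 2208 and 1071 in the mutant, without overlap (log2 1.61, SE 0.313, adjusted p = 0.0523). It passed without a composition factor (0.0471), without an expression filter (0.0465) and without mutant replicate 3 (0.0211). The isp3 gene, for a protein of the spore surface, had 433, 232 and 437 against 1135, 743 and 410 counts (log2 0.91, adjusted p = 0.181), with overlap through mutant replicate 3 and 62.5% of its length shared with other features.

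By prefix, the medians along the SPAC212 end from the tip inwards were −0.15 for SPAC212, 0.82 for SPAC977, 0.91 for SPAC1F8, 0.40 for SPAC11D3 and −0.04 for SPAC5H10. The 32 tested genes with neither a copy nor an overlap of at least 50% had 24 positive values and a median of 0.34, and the 10 tested genes with a copy had 6 positive values and a median of 0.77. These differences between groups were not tested.

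The SPAC750 end begins with 7 copied genes, of which 1, ftm4, had enough counts to be tested. Its counts were 20, 6 and 121 in wt against 37, 27 and 8 in the mutant (log2 −1.15, SE 0.984, edgeR adjusted p = 0.543). A single library, wt replicate 3, held most of the wt counts, and without it the log2 fold change was 0.74. The next gene inwards, SPAC750.01 of the aldo/keto reductase family, has no copy. It had 51, 49 and 154 counts in wt against 430, 213 and 343 in the mutant, with no overlap (log2 1.82, SE 0.470, adjusted p = 0.0911).

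**Figure D4:**
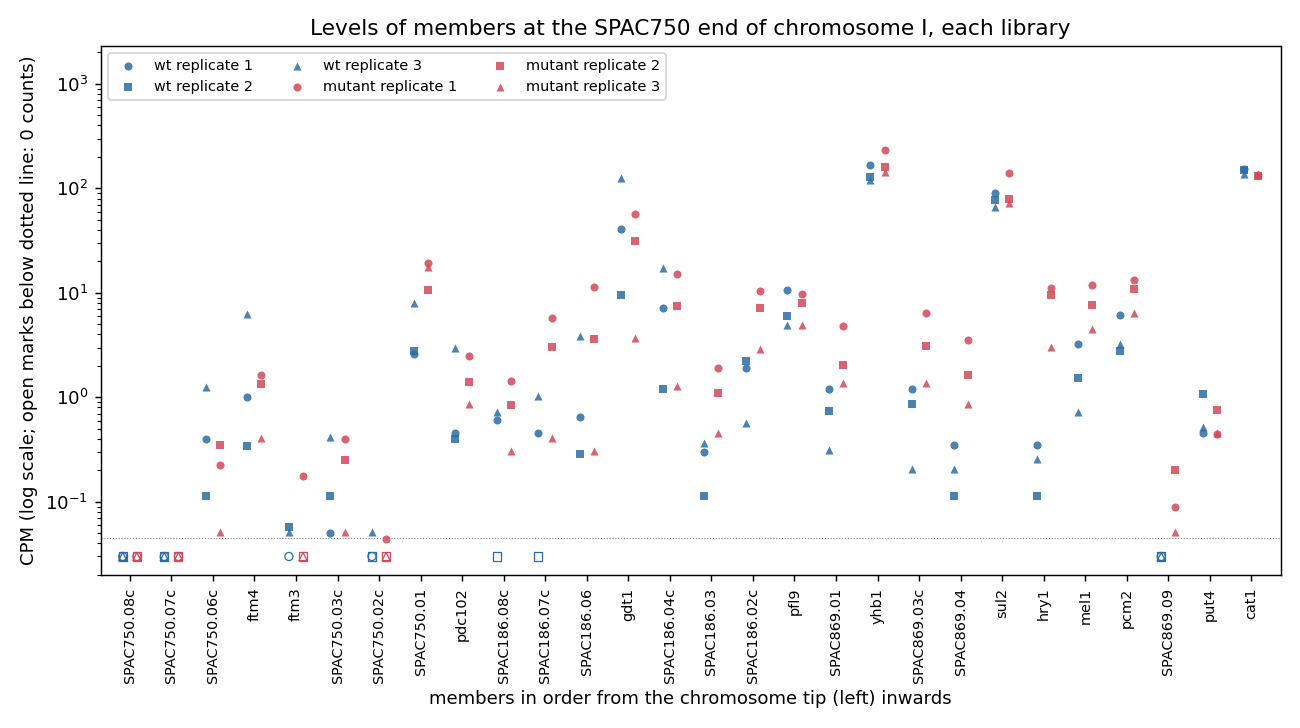
CPM (log axis) of the genes of the SPAC750 end in each library, in order from the tip (left); marker shapes are replicates and colours genotypes, and open marks below the dotted line are counts of 0. Mutant libraries lie above wt libraries for hry1, SPAC869.04 and mel1, whereas yhb1, sul2 and cat1 lie close together at higher levels.

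Then follow 6 neighbouring SPAC186 genes, from pdc102 to SPAC186.04c, whose libraries lay far apart within each genotype. The group was picked after its values were seen. All 6 were lowest in wt replicate 2 and in mutant replicate 3. For gdt1, whose budding yeast relative is a Golgi ion transporter, levels were 40.4, 9.55 and 126 CPM in wt against 57.0, 31.4 and 3.68 CPM in the mutant. Its highest and lowest CPM differed 13.2-fold within wt and 15.5-fold within the mutant, and its log2 fold change of −0.94 had an SE of 1.06 (edgeR adjusted p = 0.654). Without wt replicate 3 it was 0.29. The uncharacterized SPAC186.04c beside it had 143, 21 and 336 against 339, 150 and 25 counts (log2 −0.11, SE 0.990, adjusted p = 0.964), and 0.05 without a composition factor. The enzyme genes SPAC186.07c, a hydroxyacid dehydrogenase, and SPAC186.06, an isomerase, had 9, 0 and 20 against 128, 61 and 8 counts and 13, 5 and 74 against 253, 72 and 6 counts. Both groups of values overlapped, at log2 fold changes of 2.59 and 1.66, each with an SE above 1. The pyruvate decarboxylase gene pdc102, unlike pdc101 at the opposite end, stood low, at 0.740 CPM per kb in wt and 0.925 in the mutant.

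Between this group and the SPAC869 genes lie 3 more. The asparaginase gene SPAC186.03, which has a copy, had 6, 2 and 7 counts in wt against 43, 22 and 9 in the mutant, too few to be tested. A second hydroxyacid dehydrogenase gene, SPAC186.02c, had 38, 39 and 11 against 232, 144 and 57 counts without overlap (log2 2.12, SE 0.596, edgeR adjusted p = 0.108). The DIPSY family glycoprotein gene pfl9, a cell surface protein, had 209, 106 and 94 against 219, 159 and 97 counts with overlap (log2 0.08, SE 0.360, adjusted p = 0.924). With the background subtracted the value for pfl9 was −0.36.

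The 8 neighbours from SPAC869.01 to pcm2 were all positive on the log2 scale, at a median of 1.99. This stretch was picked after its values were seen. In 6 of the 8 no mutant library fell to the wt range, against 16.7% of all features. That count is partly selected by the expression filter, since hry1 and SPAC869.04 entered only through their mutant libraries. In all 8 mutant replicate 1 was the highest and mutant replicate 3 the lowest mutant library, against 26.8% of all features. Inside the stretch hry1 passed. Its raw counts were 7, 2 and 5 in wt against 251, 190 and 60 in the mutant, so the lowest mutant count was far above the highest wt count. The level went from 0.242 ± 0.120 to 7.93 ± 4.29 CPM (SD, n = 3), or from 0.338 to 11.1 CPM per kb, and the log2 fold change came to 4.97 (SE 0.646, adjusted p = 0.0231 by edgeR). The gene has no near-identical copy and overlaps no other counted feature. Its adjusted p was 0.0875 without wt replicate 1, 0.139 without wt replicate 3, 0.0777 without mutant replicate 1, 0.111 without mutant replicate 2 and 0.0544 with limma voom, at log2 fold changes between 4.62 and 5.34. Under the stricter filter of 5 CPM in 3 libraries it was not tested, and without an expression filter it was called. With every wt count under 10, hry1 entered the main test only through its mutant libraries.

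Of the other genes of the stretch several act on small nitrogen compounds or sugars. The formamidase-like gene SPAC869.04 had 7, 2 and 4 counts in wt against 79, 33 and 17 in the mutant, without overlap (log2 3.12, SE 0.672, edgeR adjusted p = 0.0612). It passed without mutant replicate 3 (adjusted p = 0.0366). The urea transporter gene SPAC869.03c had 24, 15 and 4 against 143, 62 and 27 counts (log2 2.25, SE 0.712), and the amidase gene SPAC869.01 had 24, 13 and 6 against 107, 41 and 27 (log2 1.85, SE 0.617). Neither pair of groups overlapped, and the adjusted p was 0.137 and 0.149. The melibiase gene mel1, for an enzyme that splits the sugar melibiose, had 64, 27 and 14 against 268, 153 and 89 counts (log2 2.13, SE 0.562, adjusted p = 0.0972). For pcm2, whose product repairs damaged aspartate residues in proteins, counts were 121, 49 and 62 against 298, 215 and 126 without overlap (log2 1.33, SE 0.383, adjusted p = 0.113).

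The abundant genes of the same stretch had smaller values. The nitric oxide dioxygenase gene yhb1 had 3304, 2271 and 2300 counts in wt against 5177, 3163 and 2835 in the mutant (log2 0.36, SE 0.203, edgeR adjusted p = 0.343). The sulfate transporter gene sul2 had 1781, 1351 and 1284 against 3130, 1591 and 1421 counts (log2 0.32, SE 0.255, adjusted p = 0.509). In both genes wt replicate 1 fell among the mutant values, and without mutant replicate 1 the log2 fold change of sul2 was −0.05.

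The innermost genes of the SPAC750 end are amino acid transporter genes. The arginine and lysine transporter gene cat1 had 3024, 2606 and 2653 counts in wt against 3000, 2632 and 2690 in the mutant, with a level of 146 ± 7.63 against 134 ± 2.83 CPM. Each mutant library was lower in CPM than each wt library, by a log2 fold change of −0.12 (SE 0.0735) that did not pass (edgeR adjusted p = 0.369). In raw counts the genotypes overlapped, and over the alternatives the log2 fold change of cat1 ran from −0.17 to −0.0017. The proline transporter gene put4 had 9, 19 and 10 against 10, 15 and 9 counts with overlap (log2 −0.30, adjusted p = 0.753), and 82.1% of its length is shared with another feature. By role, all 11 tested metabolic enzyme genes of this end were positive, against 2506 of all 4941 tested features, and their median was 1.82. In 6 of the 11 all mutant libraries were above all wt libraries, against 16.7% of all features. These counts are partly selected by the expression filter, since SPAC869.04 entered only through its mutant libraries. Others, such as SPAC869.01 and SPAC186.07c, needed some of them. The 4 tested transporters had 2 positive and 2 negative values. Medians by prefix from the tip inwards were 0.33 for SPAC750 (2 tested genes), 0.63 for SPAC186 and 1.59 for SPAC869.

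A list of 47 genes linked to subtelomeric silencing or to holding telomeres at the nuclear envelope was read from the same fit. It was not split by whether a gene promotes or limits silencing. These genes are not at the ends described here. All were found, 40 were tested, 1 was higher and 0 were lower, against the 2.29% and 0.121% of all features. The untested genes, clr3, rik1, hst4, sgo2, spt16, leo1 and mst2, had 0 CPM in every library of both genotypes. Their expression could therefore not be compared. The median log2 fold change was 0.04, with 21 positive and 19 negative values between −0.24 and 0.61. The gene that rose was man1, for a LEM-domain protein of the inner nuclear membrane, from 73.5 ± 1.60 to 108 ± 12.8 CPM (SD, n = 3), at a log2 fold change of 0.56 (SE 0.101, adjusted p = 0.0445 by edgeR). At an unadjusted edgeR p under 0.05 were 6 higher genes of the 40 (man1, mit1, ima1, clr1, ago1 and chp1) and 3 lower (asf1, clr6 and sir2). Both are close to the shares over all features, 14.5% higher and 8.12% lower. The number of called genes in the list was 0 without wt replicate 1, wt replicate 3, mutant replicate 1 or mutant replicate 2.

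The authors' deposited table of their own comparison gave 8 of 53 genes of the SPAC212 end and 6 of 21 of the SPAC750 end an adjusted p under 0.05, all higher, with 345 higher and 139 lower of the 5474 features with an adjusted p. That table was not made from the count tables used here in every row. Of the 97 genes, 5 have no row in the authors' deposited table, SPAC977.13c among them, and hry1 is listed with a mean of 0. For 6 genes with a mean of at least 10 in either source, its mean count differs more than 1.5-fold from that of the deposited counts, and for 60 it does not.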

How the data were processed

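RNA was isolated from frozen, ground cells, 5 µg of total RNA went through oligo-dT selection, and libraries were sequenced paired-end on a BGI DNB platform, per the labels' protocols. The deposited files used for testing hold 1 raw count for each annotated transcript, made by the authors with HISAT2 and HTSeq on genome build ASM294v2, per the submitters' processing notes. The sources used here do not give versions, annotation release, strand setting or the handling of multiply mapped reads. Copied or overlapping genes may therefore have shared or lost reads. The authors also deposited a DESeq2 table with log2 fold changes, p-values, their standard errors and Wald statistics (scores), and a mean normalized signal per feature, read beside the results only. Another 18 columns, normalized by the authors per library, were left out.

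Names, products, lengths, gene order, overlaps and coding sequences came from assembly ASM294v3. Since that is another build, no coordinates or sequences are given. Copies were found with blastn of BLAST+ 2.17.0. The 97 genes, the groups by role and the list of 47 genes linked to silencing or anchoring were chosen with earlier results of these data known.

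Counts were tested with edgeR 4.0.16 in R 4.3.3 (quasi-likelihood, robust, TMM, filterByExpr with a minimum count of 10 and minimum total of 15) on all 6 libraries, with genotype as the only term and adjustment over 4941 features. Levels are CPM over the TMM-scaled library size, and a count of 3 corresponds to between 0.134 and 0.171 CPM. Standard errors came from the test statistic. Genes planned to be named were the called genes, up to 5 of largest positive and negative log2 fold change and 5 of highest wt CPM per kb at each end. A fixed set of known genes and the members copied between the ends were planned too. Of these, SPAC5H10.03 and hsp3104 are given by level only. The untested SPAC212.01c, SPAC750.06c, SPAC977.03, SPAC750.03c and SPAC977.04 are not described. Other named genes were added to describe neighbours or roles after their values were seen. On simulated counts for the 4941 features the fit recovered 50.7% of 67 changes of 1.5-fold, 92.5% of 67 of 2-fold and 100% of 66 of 4-fold, and called 9 unchanged features. Each simulated feature varied on its own and had a mean above 5 CPM, so these rates may not hold for the weaker genes here. No libraries of a genotype agreed within counting noise (chi-square per degree of freedom of at least 9.68). Alternatives were other scalings and filters, the replicate number as a block, DESeq2 1.42.0, limma voom 3.58.1, each library left out, and a background per kb subtracted; leaving out wt replicate 2 and mutant replicate 3 together was added after the data were seen.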

Additional observations from a re-analysis of the deposited data

How the results depend on the processing

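Both calls sit near the threshold. Higher genes at the SPAC212 end numbered 1, but 2 without a composition factor or without an expression filter, 10 with DESeq2, 0 with the replicate block, 16 without wt replicate 2 and mutant replicate 3 together, and 0 to 5 when each library was left out in turn. At the SPAC750 end they numbered 1, but 0 with the stricter filter, the replicate block or limma voom, 8 with DESeq2, 7 without those 2 libraries and 0 to 2 with each library left out. Lower genes at the SPAC212 end numbered 0, but 2 (SPAC212.04c and adh4) without those 2 libraries and 1 (SPAC11D3.09) with the background subtracted, which sets its mutant counts near 0. Over all features 113 were higher, with 73 under the stricter filter, 0 with the block, 368 with DESeq2, 716 without those 2 libraries and 0 to 146 with each left out; 6 were lower, with 3 without a composition factor, under the stricter filter and with limma voom, 0 with the block, 150 with DESeq2, 309 without those 2 libraries, 89 with the subtraction and 0 to 5 with each left out. In the silencing list 1 was higher, with 0 under the block or limma voom, 2 with DESeq2, 6 without those 2 libraries (and 2 lower) and 0 to 1 with each left out. The median of the SPAC212 end was 0.38, and 0.0910 with the subtraction, over fewer genes; that of the SPAC750 end was 1.13, and 0.23 under the stricter filter, which leaves 8 genes, with 0.30 to 1.56 when each library was left out. Without a composition factor the median of all features moved by 0.12.

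Same-numbered libraries deviated together for replicate 1 but not for replicates 2 and 3 (correlations over genes of 0.493, −0.481 and −0.584). The highest correlation was that of wt replicate 2 with mutant replicate 3 (0.681). The numbers therefore do not pair the samples. Besides the counts, the replicate block turned SPAC186.04c to 0.23.

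Of the single genes that changed sign some had small values. Others did not, such as ftm4 (−1.15), gdt1 (−0.94), ftm1 (0.82) and SPAC212.06c (0.72). SPAC11D3.04c (−0.06) was 0.0579 without a composition factor, 0.0183 with the subtraction, 0.00797 without those 2 libraries and −0.19 to 0.12 with each library left out. The value of pfl9 (0.08) was −0.36 with the subtraction and −0.17 to 0.47 with each left out. SPAC186.04c (−0.11) was 0.0481 without a composition factor and −0.998 to 0.91 with each left out. With each library left out, gdt1 ran from −1.77 to 0.29, ftm4 from −1.67 to 0.74, sul2 from −0.0505 to 0.49, and SPAC977.14c from −0.17 to 1.18. SPAC212.06c was −0.82 and ftm1 −0.18 with the subtraction. The value of put4 (−0.30) was 0.28 without those 2 libraries and −0.58 to 0.17 with each left out. The value of nhe1 (−0.04) was 0.0838 without a composition factor, 0.0232 with the subtraction and −0.12 to 0.0447 with each left out. The causes were not tested. Over single genes and alternatives 444 values kept direction and side of the threshold, 27 passed newly, 11 no longer passed and 24 changed sign. The planned promoter motif counts were not run, since no genome of the files' build was used.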
